A study of Mus musculus with 74 samples.

Results

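The regions described here are 8862 H3K4me3 peaks of mouse liver that lie far from the promoters used to annotate them. They were taken from a merged table of 85764 H3K4me3 and H3K27ac peaks as the rows whose centre is more than 5000 bp from the closest transcription start site (TSS) and which overlap a called H3K4me3 peak in at least 2 of 4 libraries, whatever the genotype of those libraries. Of 22814 H3K4me3 peaks found in at least 2 libraries, these distal peaks were compared with 10016 promoter peaks, whose centres lie within 1000 bp of a TSS, and with 23795 distal H3K27ac peaks that no H3K4me3 list overlaps. The livers came from C57BL/6 mice of 8 to 12 weeks. The headers of the H3K4me3 and H3K27ac counts of the Gps2 line call the mice fed. Per the paper, the RNA-seq livers were of mice on a chow diet. Gps2 LKO mice carry floxed Gps2 alleles and a Cre driven by the albumin promoter, which acts in hepatocytes, and floxed animals without Cre from the same breedings served as the group called WT. H3K4me3 and H3K27ac were measured in 2 WT and 2 LKO libraries each, Pol II and GPS2 in 1 WT and 1 LKO library each, and polyadenylated RNA in 4 WT and 4 LKO livers. H3K27ac was also measured in 3 WT and 3 LKO libraries each of the Ncor and Smrt lines, which lack these corepressors in hepatocytes. Several immunoprecipitations were pooled into a ChIP-seq library, and a library is taken here as 1 replicate. In whole liver, fewer cells that carry a mark and less of the mark per cell cannot be told apart.

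H3K4me3, trimethylation of lysine 4 of histone H3, is deposited by the SET1 and MLL complexes and is the standard mark of promoters, above all those in CpG islands, which CXXC domain proteins of these complexes recognise. H3K27ac, acetylation of lysine 27, marks active promoters and enhancers, and most enhancers carry monomethylated rather than trimethylated lysine 4. GPS2 is a subunit of the corepressor complex built on NCOR or SMRT with the histone deacetylase HDAC3, which nuclear receptors such as PPARα, the fasting-activated regulator of fatty acid oxidation, recruit to DNA. The question here is what distal H3K4me3 peaks look like in liver, and whether their marks, Pol II and neighbouring genes differ when hepatocytes lose GPS2.

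The sequence at the centre of a few peaks shows how unlike each other these regions are. Each of the following is 300 bases of the NCBIM37 (mm9) assembly, plus strand, at the middle of the peak, with CG dinucleotides in capitals. The Pcgf5, Nlrp4f and Whsc1 peaks were chosen because they rank among the densest in H3K4me3, the Mfsd2a and Fam19a2 peaks because H3K4me3 and H3K27ac both rose in LKO livers, and the Ung peak because both fell. Peaks are called by the gene whose TSS is closest.
Pcgf5 chr19:36422957-36423256: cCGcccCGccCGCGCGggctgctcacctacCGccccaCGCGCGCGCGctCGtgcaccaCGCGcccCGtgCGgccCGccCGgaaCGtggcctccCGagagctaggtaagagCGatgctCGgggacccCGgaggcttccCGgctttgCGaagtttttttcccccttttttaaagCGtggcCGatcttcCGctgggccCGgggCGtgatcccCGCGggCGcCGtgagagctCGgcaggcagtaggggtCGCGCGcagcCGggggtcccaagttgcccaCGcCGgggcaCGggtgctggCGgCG
Nlrp4f chr13:65342715-65343014: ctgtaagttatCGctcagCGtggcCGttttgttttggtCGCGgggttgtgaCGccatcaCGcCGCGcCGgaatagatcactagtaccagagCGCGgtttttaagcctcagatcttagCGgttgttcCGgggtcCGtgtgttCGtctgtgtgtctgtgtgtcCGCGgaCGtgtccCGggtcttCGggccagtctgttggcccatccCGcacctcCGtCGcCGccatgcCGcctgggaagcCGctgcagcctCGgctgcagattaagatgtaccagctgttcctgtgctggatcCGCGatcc
Whsc1 chr5:34163228-34163527: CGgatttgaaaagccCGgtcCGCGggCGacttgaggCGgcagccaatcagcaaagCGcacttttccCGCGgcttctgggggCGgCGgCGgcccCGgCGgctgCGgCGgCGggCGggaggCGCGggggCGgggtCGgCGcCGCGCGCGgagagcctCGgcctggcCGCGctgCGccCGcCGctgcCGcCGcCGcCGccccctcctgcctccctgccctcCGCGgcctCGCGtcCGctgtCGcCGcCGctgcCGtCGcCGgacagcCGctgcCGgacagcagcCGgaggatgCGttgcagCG
Mfsd2a chr4:122648850-122649149: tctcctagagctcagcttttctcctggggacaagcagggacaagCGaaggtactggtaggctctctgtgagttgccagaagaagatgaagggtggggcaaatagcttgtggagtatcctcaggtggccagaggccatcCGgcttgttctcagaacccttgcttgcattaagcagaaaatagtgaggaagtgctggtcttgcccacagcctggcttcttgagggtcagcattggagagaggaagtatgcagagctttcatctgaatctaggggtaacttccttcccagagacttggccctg
Fam19a2 chr10:122972962-122973261: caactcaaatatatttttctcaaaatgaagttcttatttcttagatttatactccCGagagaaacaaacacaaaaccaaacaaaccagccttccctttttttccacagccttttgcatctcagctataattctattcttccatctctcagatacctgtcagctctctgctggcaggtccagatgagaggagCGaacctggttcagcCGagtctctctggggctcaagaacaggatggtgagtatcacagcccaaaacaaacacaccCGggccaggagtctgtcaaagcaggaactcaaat
Ung chr5:114597414-114597713: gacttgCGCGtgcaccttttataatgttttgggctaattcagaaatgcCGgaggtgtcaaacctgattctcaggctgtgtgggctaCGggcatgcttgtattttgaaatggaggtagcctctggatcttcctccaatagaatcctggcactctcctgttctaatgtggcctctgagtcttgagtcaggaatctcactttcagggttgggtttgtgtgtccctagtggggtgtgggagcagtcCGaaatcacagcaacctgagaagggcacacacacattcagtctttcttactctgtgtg
The 3 dense peaks hold 44, 30 and 53 CG dinucleotides in these 300 bases, while the Mfsd2a, Fam19a2 and Ung windows hold 2, 4 and 5. Over all peaks, the central 300 bases held a median of 5 CG dinucleotides in 8848 distal H3K4me3 peaks, 20 in 10007 promoter peaks and 3 in 23780 distal H3K27ac peaks. At least 10 CG dinucleotides were present in 24.4% of the distal H3K4me3 windows, 76.2% of the promoter windows and 1.88% of the distal H3K27ac windows. The hexamer AGGTCA, the element that nuclear receptors bind, was read on either strand in 18.6%, 13.3% and 23.4% of the same windows.

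The distal peaks ranged from 503 to 123235 bp in width, with a median of 2323 bp and quartiles of 1255 and 5172.5 bp, and together they cover 43.2 Mb. They lie at a median of 25181 bp from the closest TSS, which belongs to 5778 different genes. By the annotation in the table, 4590 (51.8%) are intergenic, 3682 (41.5%) lie in introns and 359 (4.05%) in exons. The 41 peaks that lie less than 100 bp past the 5000 bp limit had a median width of 4179 bp and a median of 30.6 H3K4me3 tags per kb and 10000000 library tags (10M), against 2842 bp and 20.3 for the 49 peaks less than 100 bp inside it. H3K4me3 was called in all 4 libraries at 5423 of the distal peaks and in 3 at 1455. Another 720 were listed in 1 WT and 1 LKO library, 711 in both WT libraries alone and 553 in both LKO libraries alone. H3K27ac was called in at least 2 of its 4 libraries at 7002 of them (79.0%) and in none at 1515.

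The label held for most, not all, of these peaks. In a fuller annotation of the same assembly (GENCODE M1), 1652 peaks (18.6%, 95% exact interval 17.8 to 19.5%) contain an annotated transcript start, and 21.0% do so if starts within 1000 bp of the peak are counted. With each peak counted once, in this order, a start was of a protein-coding gene in 1315 peaks, of a long non-coding RNA in 209 and of a pseudogene in 58. A start of a transcript that is itself protein-coding was present in 1018 peaks. In 935 peaks a start was of the very gene named as closest. In 524 peaks (5.91%) the peak reaches over the TSS from which its distance is measured, because the distance is taken from the peak centre and the peak is wide. All 524 are among the 1074 peaks wider than 10 kb, of which they make up 48.8%. Peaks up to 1000 bp wide, 1434 in number, differed from these broad domains in the features they overlap. An overlap counts from 1 shared base, and the median widths were 804 and 16811.5 bp, so broad peaks have far more room for one. A GPS2 peak was present in 7.53% of the narrow and 98.4% of the broad peaks, a Pol II peak in 4.39% and 94.0%, and 66.9% of the narrow peaks had no H3K27ac call in any library.

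H3K4me3 at distal peaks was weak beside that at promoters. The median density, in tags per 10M library tags per kb, was 14.0 to 16.6 in the 4 libraries at distal peaks, with the LKO values between the WT values, against 114 to 125 in the 4 libraries at promoter peaks and 2.27 to 2.48 at distal H3K27ac peaks. The class medians lay apart in every library, although single peaks of the classes overlap in density. The order of both distal classes in H3K4me3 follows from how they were chosen, since one needed a call of this mark and the other none. The distal peaks took 10.7 to 12.1% of all H3K4me3 tags, and the promoter peaks 35.7 to 38.4%. For H3K27ac, distal peaks had 23.7 and 22.9 tags per 10M per kb in WT livers and 25.2 and 25.1 in LKO livers. Promoter peaks had 44.1 to 45.9 and distal H3K27ac peaks 14.6 to 16.3, so the median H3K27ac density of distal H3K4me3 peaks lay between those of the other classes in every library. Within the distal peaks, those with an annotated start had a median H3K4me3 density of 29.4 over the 4 libraries, and those with no start within 1000 bp had 14.0. The peaks with a CpG-rich window (500 bases with over 55% G and C and an observed to expected CpG ratio over 0.65) had 41.2, against 12.8 for those without.

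**Figure D1:**
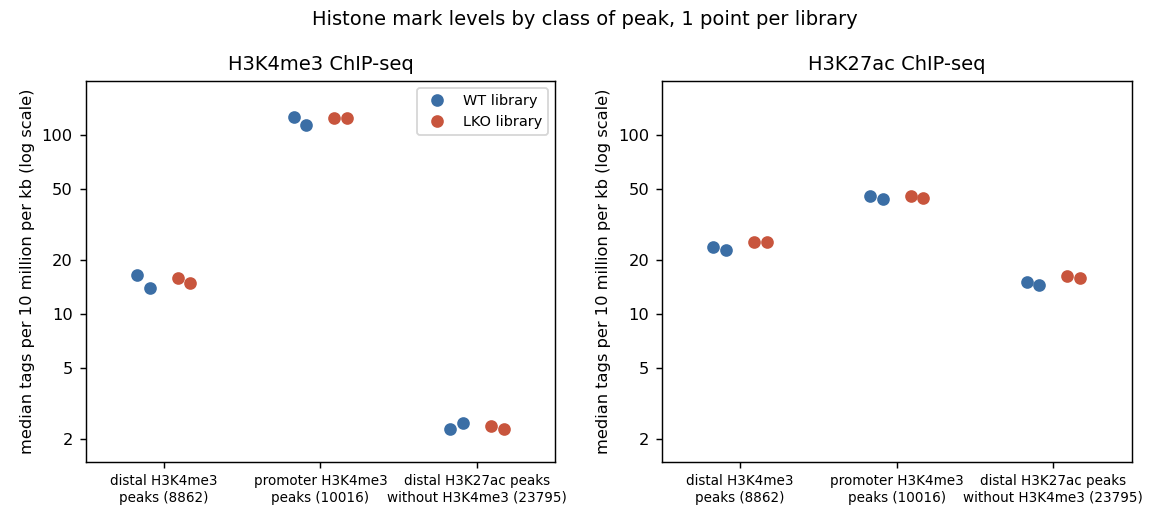
Median H3K4me3 and H3K27ac density (tags per 10M library tags per kb, log axis) in each WT and LKO library for distal H3K4me3 peaks, promoter H3K4me3 peaks and distal H3K27ac peaks without H3K4me3. The medians of distal H3K4me3 peaks lie between those of the other classes in every library, at 14.0 to 16.6 for H3K4me3, where the choice of the distal classes fixes their order.

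Starts, CpG-rich windows and Pol II peaks were less frequent farther from the TSS. An annotated start of the fuller annotation was present in 36.9% of 1687 peaks at 5 to 10 kb, 16.3% of 4649 at 10 to 50 kb, 11.8% of 1388 at 50 to 100 kb and 9.67% of 1138 peaks farther away. A CpG-rich window was present in 37.8%, 18.7%, 12.5% and 10.7% of the same groups. Pol II peaks in the WT library were found at 59.0%, 49.5%, 44.0% and 32.0%, and GPS2 peaks at 59.5%, 55.2%, 54.9% and 48.0%. Peaks near the TSS were wider, and 396 of the 622 start-holding peaks at 5 to 10 kb reach over the TSS their distance is measured from, against none of those past 100 kb. Among peaks of 1000 to 5000 bp, a start was present in 17.1%, 12.995%, 10.7% and 9.32% from the nearest to the farthest group, a CpG-rich window in 28.6%, 19.5%, 15.04% and 12.0%, and a Pol II peak in 48.5%, 46.5%, 41.8% and 33.0%. GPS2 peaks no longer declined with distance at this width, with shares of 47.5%, 51.2%, 52.6% and 52.7%. The exact intervals of the nearest and farthest group did not overlap for starts, CpG-rich windows and Pol II, and they overlapped for GPS2 (44.1 to 50.8% and 49.1 to 56.4%). The intervals cover counting error only, and each factor was measured in 1 library.

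**Figure D2:**
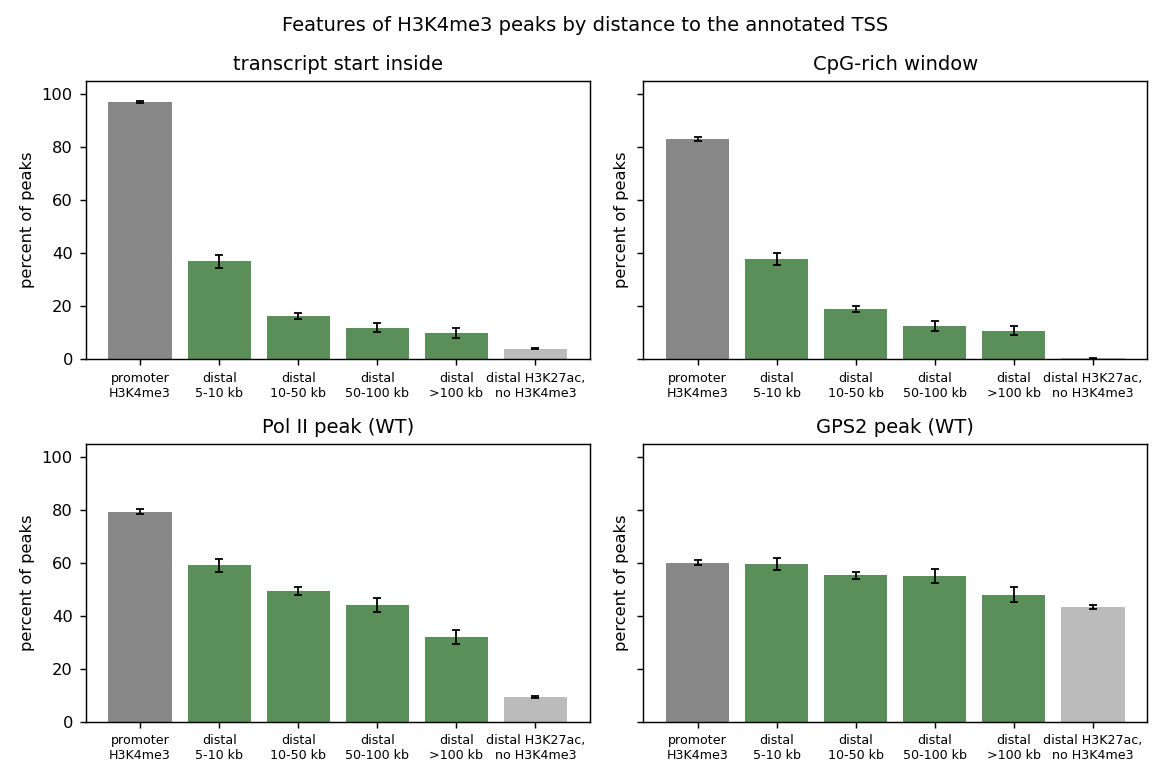
Percent of peaks that contain an annotated transcript start, a CpG-rich window, a Pol II peak or a GPS2 peak (the last pair in WT livers), for promoter H3K4me3 peaks, distal H3K4me3 peaks by distance from the TSS, and distal H3K27ac peaks. Error bars are exact 95% binomial intervals, and all 4 shares are lower in peaks past 100 kb than in those at 5 to 10 kb, where peaks are wider. At a width of 1000 to 5000 bp the GPS2 share did not fall with distance.

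GPS2 and NCOR peaks were common at distal H3K4me3 peaks, while Pol II was less frequent there than at promoters. GPS2 peaks of WT liver overlapped 55.1% of distal H3K4me3 peaks, 60.04% of promoter peaks and 43.3% of distal H3K27ac peaks. NCOR peaks called in at least 2 of 3 WT libraries overlapped 53.7%, 48.7% and 45.8%. Pol II peaks overlapped 48.2%, 79.4% and 9.19% in the WT library and 48.3%, 79.5% and 9.99% in the LKO library. Wider peaks have more room for an overlap, so the same shares were taken among peaks of 1000 to 5000 bp. They were then 51.0%, 59.6% and 43.9% for GPS2, 48.6%, 47.0% and 46.8% for NCOR, and 44.1%, 81.4% and 7.94% for Pol II. At this width the NCOR shares differed by less than 2 percentage points between the 3 classes, whereas the Pol II shares kept apart.

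The densest distal peaks were CpG-rich and showed no change past the threshold in LKO livers. The highest was at chr5:34161914-34164843, with 273 H3K4me3 tags per 10M per kb. It contains a start of Whsc1, a histone H3 lysine 36 methyltransferase gene, although the table places it 22383 bp upstream of the TSS it uses. The H3K4me3 signal there was 844 and 765 tags per 10M in WT livers and 778 and 813 in LKO livers, a log2 change of -0.02 ± 0.07 (SE). The next in order, near Cfap97 (271 per kb), holds a start of Snx25, a sorting nexin gene, and the one near Kansl1 (261), a chromatin regulator gene, holds a start of the non-coding transcript 1700081L11Rik. No start was annotated in the peaks near Nlrp4f at chr13:65341291-65344440 (250) and Pcgf5, a Polycomb gene, at chr19:36421535-36424679 (246), or in the intronic peak of Pura (244), which encodes a nucleic acid binding protein. The Pcgf5 peak had 199 Pol II tags per 10M in WT (exact Poisson interval 174 to 226) and 184 (161 to 210) in LKO livers, and the Nlrp4f peak 64.3 (50.6 to 80.7) and 79.9 (64.6 to 97.6). H3K4me3 changes at these 6 peaks lay between -0.07 and 0.03, and none passed the threshold.

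Over all distal peaks, H3K4me3 moved little in Gps2 LKO livers. In edgeR's quasi-likelihood test with Benjamini-Hochberg adjustment over the 22814 H3K4me3 peaks, 86 of the 8862 distal peaks (0.970%) had an adjusted p below 0.05 with the LKO libraries higher, and 11 (0.124%) with them lower. The background over all peaks tested was 0.798% higher and 0.118% lower, so the share of distal peaks that changed was near that of all H3K4me3 peaks. The median log2 change of the distal peaks was 0.02. Rises ranged from 0.29 to 3.44 on the log2 scale with a median of 0.70, and 29 of them passed 1. Falls ranged from -0.44 to -2.34 with a median of -1.25, and 8 of the 11 went past -1. Between libraries of 1 genotype the median absolute log2 difference was 0.26 (WT) and 0.21 (LKO), and between the means of the genotypes it was 0.19. A mean of 2 libraries varies less than a single library, so these values are not like measures. The LKO libraries both lay outside the WT range at 3238 distal peaks (36.5%), against 36.2% of all H3K4me3 peaks. The rises fell to 40 (with 10 falls) without WT replicate 2 and to 57 (with 28 falls) without LKO replicate 1, and the falls to 6 without WT replicate 1. A test over all rows with at least 1 tag called 15 rises and 2 falls, and the replicate block gave 215 and 90.

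The peaks that gained H3K4me3 were wide. Their median width was 13113.5 bp and 48 of the 86 were wider than 10 kb, 41 of these with an annotated start. Wide peaks hold more tags, which makes a change in them easier to call. The median was 413 H3K4me3 tags per 10M in distal peaks wider than 10 kb and 13.2 in those up to 1000 bp. The part of tag number in the width of the rises was not tested. In all, 44 of the 86 (51.2%) contain an annotated start and 36 (41.9%) reach over the TSS from which their distance is measured. A GPS2 peak was present in 80 of them (93.0%), an NCOR peak in 87.2% and a Pol II peak in 90.7%. Among peaks wider than 10 kb, the shares with GPS2, NCOR and Pol II were 97.9%, 93.8% and 95.8% in the 48 that rose and 98.4%, 97.9% and 94.0% in the 1026 that did not. Leaving out the peaks that cover their own TSS left 50 rises and 10 falls, and leaving out those with any start within 1000 bp left 40 and 4. By distance, 34 rises were at 5 to 10 kb, 40 at 10 to 50 kb, 7 at 50 to 100 kb and 5 beyond. The lists from which peaks were taken bear on these counts, since 9 of the rises were among the 553 peaks listed in LKO libraries alone, and 2 of the falls among the 711 listed in WT libraries alone. Peaks listed in all 4 libraries gave 71 rises and 8 falls.

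Single peaks rose several-fold. A peak in an intron of Fam19a2, which encodes a secreted chemokine-like protein, at chr10:122970329-122975896 had 35.0 and 97.7 H3K4me3 tags per 10M in WT livers and 530 and 477 in LKO livers, a log2 change of 2.94 ± 0.26 (adjusted p = 6.1e-05). The LKO values lay far above the WT values, which also differed from each other. H3K27ac there was 83.1 and 150 in WT livers and 553 and 547 in LKO livers (2.22 ± 0.22, adjusted p = 0.0082). No GPS2 peak was called in this region in WT liver. Fam19a2 RNA rose from 2.03 to 5.68 normalised counts in the WT to 111 to 141 in the LKO libraries (log2 4.92, adjusted p = 7.6e-10). This peak lies 271980 bp from the TSS of Fam19a2 and contains no annotated start.

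Both distal peaks of Mfsd2a, the lysophosphatidylcholine transporter that imports docosahexaenoic acid and is induced by fasting in liver, gained H3K4me3. At chr4:122646561-122651439, 10569 bp upstream, H3K4me3 was 10.7 and 14.3 tags per 10M in WT livers and 88.9 and 86.2 in LKO livers (log2 2.81 ± 0.27, adjusted p = 0.00013). H3K27ac was 150 and 193 in WT livers and 388 and 380 in LKO livers (1.16 ± 0.12, adjusted p = 0.011). It was thus an acetylated region with almost no H3K4me3 in WT liver that carried both marks in LKO liver, and 1 GPS2 peak was called there in WT liver. The other, at chr4:122619346-122640419 and centred 8549 bp downstream, is a wide domain that reaches over the Mfsd2a TSS its distance is measured from. It had 637 and 910 H3K4me3 tags per 10M in WT livers and 1775 and 1900 in LKO livers (1.25 ± 0.12, adjusted p = 0.00012). Mfsd2a RNA rose from 731 to 807 normalised counts in WT to 3569 to 4188 in LKO libraries, a log2 change of 2.37 ± 0.07.

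The remaining large rises were mostly at peaks called in LKO libraries alone. The intronic Cux2 peak had 13.7 and 16.9 H3K4me3 tags per 10M in WT livers and 52.6 and 66.0 in LKO livers (log2 1.95 ± 0.28, adjusted p = 0.0037). Cux2 encodes a homeobox factor that liver expresses mainly in females, and its RNA rose by 5.49 ± 0.27, from 1.89 to 10.2 normalised counts in WT to 182 to 305 in LKO libraries. The peak 27075 bp from Gcnt1, an enzyme that branches O-glycans, had 27.9 and 37.1 tags in WT livers and 244 and 195 in LKO livers (2.76 ± 0.21, adjusted p = 2.8e-05), with Gcnt1 RNA at 6.63 to 11.1 and 10.5 to 24.2 normalised counts. The peak near Rab14, an endosomal small GTPase gene, lies in an intron of Cep110 and contains annotated starts of Cep110. It went from 59.4 and 64.5 to 256 and 210 tags (1.91 ± 0.17, adjusted p = 9.5e-05). Rab14 RNA had a log2 change of -0.00 ± 0.06. The largest ratio was at a peak in Cdk5rap1, a mitochondrial tRNA modifying enzyme gene, which contains an annotated start of that gene. This peak had 8.31 and 1.30 tags in WT livers and 34.2 and 75.04 in LKO livers (3.44 ± 0.53, adjusted p = 0.0063). That call was lost in DESeq2 and without WT replicate 2, as was that at C230079O03Rik (2.02 ± 0.41, adjusted p = 0.033), which TMM scaling lost too. All 3 calls at Cdk5rap1, C230079O03Rik and Cux2 were lost in a test over all rows with at least 1 tag. The Lrrc18 peak, in an intron of Wdfy4, rose by 2.24 ± 0.27 (adjusted p = 0.0012). Of these peaks, those of Mfsd2a (at 10569 bp), Gcnt1, Lrrc18, C230079O03Rik, Cux2 and Cdk5rap1 were listed in both LKO and in no WT library for H3K4me3, so that a low WT signal follows from how they became members. Those of Fam19a2 and Rab14 were also listed in 1 WT library.

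Both marks fell furthest in front of Rassf3, which encodes a Ras association domain protein. At chr10:120945664-120954050, 36551 bp upstream, H3K4me3 was 213 and 216 tags per 10M in WT livers and 47.9 and 36.7 in LKO livers (log2 -2.34 ± 0.19, adjusted p = 3.4e-05). H3K27ac was 356 and 328 in WT livers and 64.7 and 62.2 in LKO livers (-2.43 ± 0.11, adjusted p = 0.00059). The neighbouring domain at chr10:120920958-120939641, with 5 GPS2 peaks, fell from 339 and 300 to 101 and 89.9 H3K4me3 tags (-1.74 ± 0.14) and from 1823 and 1793 to 554 and 522 H3K27ac tags (-1.75 ± 0.08). Rassf3 RNA fell from 1939 to 2084 normalised counts in WT to 1002 to 1120 in LKO libraries (log2 -0.91 ± 0.06, adjusted p = 9.8e-08).

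The other falls were smaller. The peak at chr5:114594751-114600377 is 16399 bp from the TSS of Ung, a uracil DNA glycosylase gene, and contains a start of Acacb, the mitochondrial acetyl-CoA carboxylase that restrains fatty acid oxidation. Its H3K4me3 was 120 and 115 tags per 10M in WT livers and 51.0 and 47.4 in LKO livers (-1.25 ± 0.20, adjusted p = 0.0073), and its H3K27ac was 350 and 382 against 238 and 213 (-0.70 ± 0.10, adjusted p = 0.022). Acacb RNA had a log2 change of 0.25 ± 0.13 (adjusted p = 0.12) and Ung RNA of -0.07 ± 0.09. The peak in Synj2, an inositol phosphatase gene, contains annotated starts of Synj2. H3K4me3 there went from 68.9 and 62.6 to 23.7 and 25.01 tags (-1.43 ± 0.24, adjusted p = 0.011), and Synj2 RNA fell by 0.60 on the log2 scale. The peak near Sstr3, a somatostatin receptor gene, contains a start of Gm6723 and went from 27.9 and 28.7 to 10.5 and 10.6 tags (-1.41 ± 0.29, adjusted p = 0.041). The Sstr3 call was lost in DESeq2 and with each library left out, and those at Ung and Synj2 were lost without WT replicate 2, that at Synj2 also without WT replicate 1. All 3 were lost in the test over all rows with at least 1 tag.

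**Figure D3:**
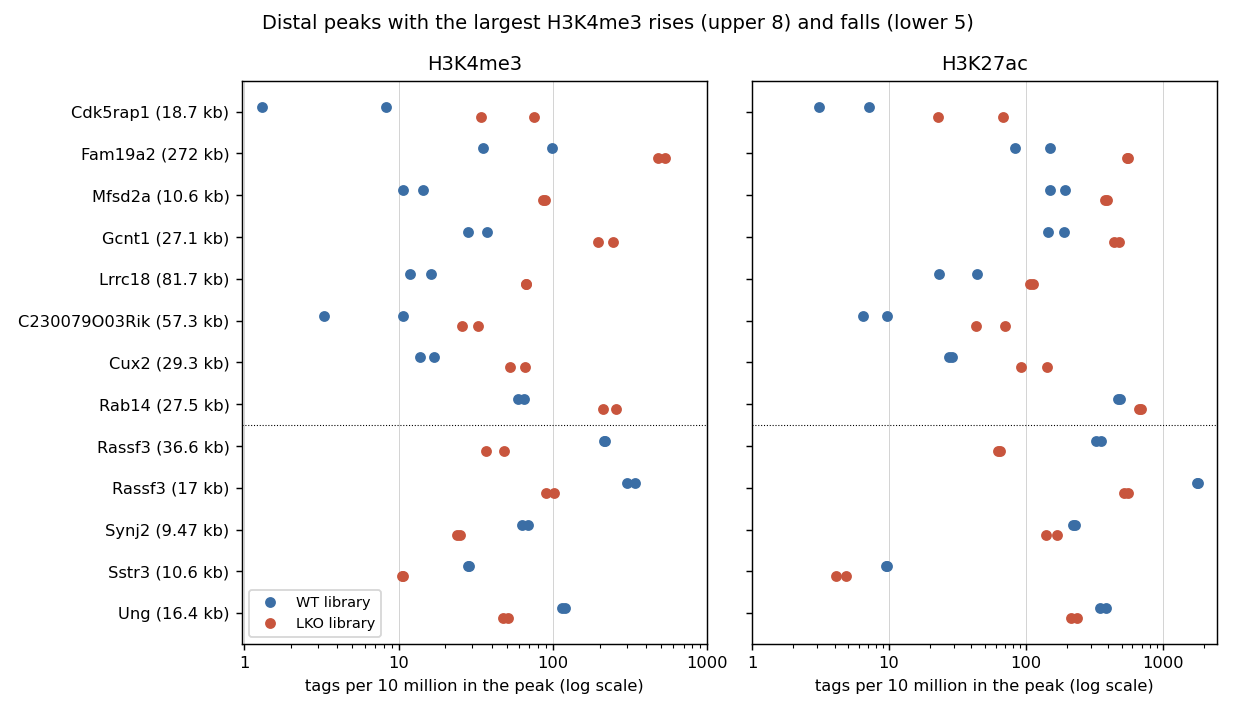
H3K4me3 and H3K27ac tags per 10M library tags (log axis) in each WT and LKO library at the 8 largest rises and 5 largest falls of H3K4me3. The libraries of the 2 genotypes do not overlap in H3K4me3 at any of these peaks, which follows from how they were chosen, and the H3K27ac change had the same sign at each.

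H3K27ac was tested at the 7002 distal peaks where it was called in at least 2 libraries. By edgeR, 108 (1.54%) were higher in LKO livers and 21 (0.300%) lower, against 1.21% and 0.212% of the 47108 H3K27ac peaks tested. The median log2 change was 0.06. Rises ranged from 0.41 to 2.84 with a median of 0.90 and 40 past 1, and falls from -0.42 to -2.43 with a median of -0.96 and 10 past -1. TMM scaling gave 65 rises and 26 falls and DESeq2 86 and 50, so rises outnumbered falls by less in both. These counts rested on the WT libraries: without WT replicate 1 no distal peak passed (727 higher and 118 lower at an unadjusted p below 0.05, lowest adjusted p 0.072) and without WT replicate 2 there were 1 rise and 2 falls (546 and 274 unadjusted). Without LKO replicate 1 there were 304 rises and 208 falls, and without LKO replicate 2 there were 246 and 36. The LKO libraries lay outside the WT range at 3903 distal peaks (44.0%), as at 44.8% of all H3K27ac peaks.

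Peaks that gained H3K27ac were unlike those that gained H3K4me3. They were narrower, with a median width of 3798 bp against 13113.5 bp, and 17.6% of them contain an annotated start, against 51.2%. Over all distal peaks the median was 61.7 H3K27ac and 34.8 H3K4me3 tags per 10M. More tags can let a narrower peak pass, and the part of this in the contrast was not tested. A GPS2 peak was present in 91 of the 108 (84.3%), an NCOR peak in 87.0% and a Pol II peak in 63.0%. Over all distal peaks, whose median width was 2323 bp, the shares were 55.1%, 53.7% and 48.2%. Wider peaks have more room for an overlap, and these shares were not compared at like width. The peak 53144 bp upstream of Cyp2b9, a cytochrome P450 gene that liver expresses mainly in females, had 3.20 and 2.72 H3K27ac tags per 10M in WT livers and 21.4 and 17.0 in LKO livers (log2 2.68 ± 0.32, adjusted p = 0.014), and its H3K4me3 change was 0.91 ± 0.39 (adjusted p = 0.56). The signal was low in both genotypes, and DESeq2 did not call this peak. A peak near the non-coding gene A530006G24Rik rose from 13.6 and 12.3 to 45.9 and 44.8 H3K27ac tags (1.81 ± 0.20, adjusted p = 0.011). The largest fall apart from Rassf3 was in a 15605 bp domain 37019 bp upstream of Jph4, a junctophilin gene, with 998 and 930 tags in WT livers and 318 and 208 in LKO livers (-1.88 ± 0.17, adjusted p = 0.0079). H3K4me3 there changed by -0.42 ± 0.23 (adjusted p = 0.71), and the domain contains a start of SNORA17. All of these H3K27ac calls were lost without WT replicate 1, as were those at Fam19a2, Mfsd2a, Gcnt1, Lrrc18, C230079O03Rik, Cux2 and Rassf3. Without WT replicate 2, the calls at Fam19a2 and both Rassf3 peaks stayed and the other 8 were lost.

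H3K27ac moved with H3K4me3 at the peaks where H3K4me3 changed. Both passed the threshold at 33 distal peaks, with 27 higher and 6 lower in both. Of the 86 peaks with more H3K4me3, 81 had a positive H3K27ac change (median 0.34), and all 11 with less H3K4me3 had a negative one (median -0.60). H3K4me3 alone passed at 64 of the 7002 peaks and H3K27ac alone at 96. The marks were measured in separate libraries, which the labels do not pair by animal.

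**Figure D4:**
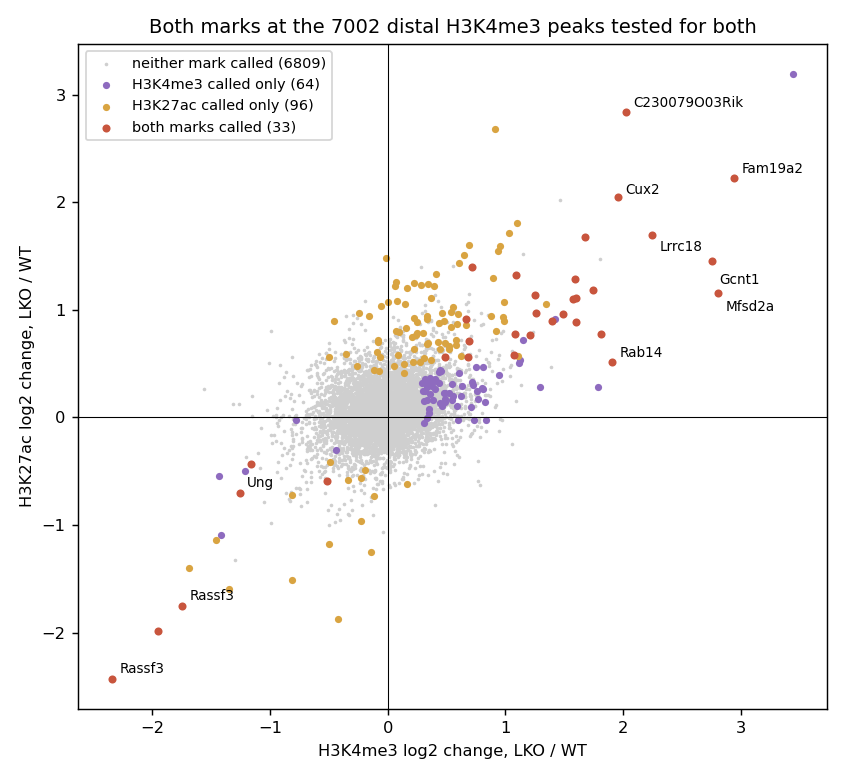
Log2 change of H3K4me3 (x axis) and H3K27ac (y axis) in Gps2 LKO against WT livers at the 7002 distal peaks tested for both marks, each point 1 peak, coloured by which mark passed an adjusted p of 0.05. The 33 peaks that passed for both lie in the upper right (27) and lower left (6).

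In the Ncor line, H3K27ac was higher at 215 and lower at 95 of the 7186 distal peaks that could be looked up (2.99% and 1.32%, against a background of 2.32% and 0.801%). Without WT replicate 1, 2 or 3 the rises fell to 84, 56 and 61 and the falls to 48, 15 and 23, and without LKO replicate 3 the falls were 54. Of the 108 peaks with more H3K27ac in Gps2 LKO livers, 107 were tested in the Ncor line, where 17 were higher and 1 was lower, with a median log2 change of 0.13. In the Smrt line no distal peak passed in edgeR (background 0.0%), with 239 higher and 341 lower at an unadjusted p below 0.05, and DESeq2 called 9 and 7. The median change of the same 107 peaks was 0.01. The difference between the lines was not tested. Their livers also differ in sex-linked signal, with 438 to 674 tags per 10M in chromosome Y peaks in the Ncor line and 0.571 to 1.47 in the Smrt line, and with 4.55 to 8.54 and 266 to 297 at the Xist and Tsix peaks. Gps2 livers had 491 to 537 and 1.60 to 7.13 in their own H3K27ac peak set. The Smrt values have a female pattern and the Ncor and Gps2 values a male one, whereas the paper states that the mice used were male. The labels give no sex, and line and sex cannot be told apart in this comparison. In the Gps2 livers the value at the Xist and Tsix peak differed by genotype, at 1.60 and 2.04 in WT livers and 6.77 and 7.13 in LKO livers.

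Pol II at distal peaks was nearly the same in both genotypes as far as 1 library each can tell. Among 4699 distal peaks that hold the centre of a Pol II peak, the median was 25.7 tags per 10M in WT and 26.1 in LKO livers, and the median log2 ratio was 0.07 with quartiles of -0.23 and 0.33. The ratio was past 1 at 252 peaks and past -1 at 203. At 81 of the peaks with more H3K4me3, the medians were 146 and 165. The Mfsd2a peak at 10569 bp had 84.9 (69.0 to 103) in WT and 149 (128 to 172) in LKO livers, and the Cux2 peak 95.2 (78.3 to 115) and 143 (122 to 166). Their Poisson intervals did not overlap. At Gcnt1 Pol II was 50.6 (38.5 to 65.3) in WT and 31.1 (21.9 to 42.9) in LKO livers, with intervals that overlap. GPS2 tags at 4872 distal peaks went from a median of 22.6 to 0.676 in LKO livers, which checks the knockout at these regions.

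Gps2 RNA itself was 241 to 266 normalised counts in WT and 145 to 205 in LKO livers (log2 -0.53 ± 0.11, adjusted p = 0.0021), so whole liver kept much of the transcript. In 3 of the 4 LKO RNA libraries the change followed gene length. The median log2 level of the shortest quartile of genes minus that of the longest, relative to the WT mean, was 0.73, 0.05, 0.44 and 0.68 in LKO replicates 1 to 4 and -0.04 to 0.05 in the WT libraries. RNA counts below are therefore also given with LKO replicate 2 as the only LKO library, a choice made after the trend was seen.

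Taken at all lengths together, genes closest to distal H3K4me3 peaks were lower in LKO livers more often than other genes, and about as often higher. Of 3689 tested, 837 (22.7%) were higher and 963 (26.1%) lower in LKO livers, against a background of 23.4% and 21.4% over all genes and 23.7% and 19.4% of the 8531 other genes. Their median length was 3444 bases and that of the other genes 2775. Within each length quartile the closest genes were more often higher, and more often lower, than the other genes. From the shortest to the longest quartile, 41.5%, 29.3%, 19.6% and 10.5% of the closest genes were higher, against 41.3%, 23.3%, 15.9% and 9.9% of the others. The shares lower were 8.30%, 16.5%, 24.5% and 43.3%, against 5.43%, 12.8%, 23.3% and 41.6%. With LKO replicate 2 alone, 752 of 3819 (19.7%) were higher and 649 (17.0%) lower, against 15.8% and 13.6% of all 12715 genes and 14.2% and 12.2% of the other genes, so that both directions were then more frequent. The difference in these shares was not tested. The 108 genes with 5 or more distal peaks, at a median length of 5722.5 bases, were lower in 44 cases (40.7%) and higher in 13 (12.0%). With LKO replicate 2 alone, 24 of 109 (22.0%) were lower and 16 (14.7%) higher. The most distal peaks belonged to Wwox (17), Maf (16) and Tiam1 (15).

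Genes next to changed peaks mostly followed the mark, beside 23.4% of all genes higher and 21.4% lower. Of 69 genes closest to a peak with more H3K4me3, 41 (59.4%) were higher and 8 (11.6%) lower, and of 8 closest to a peak with less, 6 were lower. For H3K27ac, 43 of 70 were higher and 6 lower beside peaks that rose, and 6 of 10 were lower beside peaks that fell. With LKO replicate 2 alone, 47 of the 69 and 47 of the 70 were higher and 6 and 1 lower, and 6 of 8 and 6 of 10 were lower beside the falls. Many of these peaks reach the start of the gene itself, as given above.

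The largest RNA changes among the closest genes were not all at changed peaks. Cyp2b9 rose from 0.991 to 3.05 normalised counts in WT to 770 to 1016 in LKO libraries (log2 8.74 ± 0.19). Lepr, the leptin receptor gene, rose by 2.65 ± 0.11, Nt5e, an ecto-nucleotidase gene, by 2.47 ± 0.11, and H2-Q1, a class I histocompatibility gene, by 2.45 ± 0.11. Each of these 3 genes had 1 distal peak, with H3K4me3 changes of 0.28, 0.17 and 0.65, none past the threshold. The largest falls were those of Lama3, a laminin gene (-2.44 ± 0.17), Acot11, an acyl-CoA thioesterase gene (-1.94 ± 0.16), Cyp4a12a, a cytochrome P450 gene that liver expresses mainly in males (-1.90 ± 0.12), Bcl6, a transcriptional repressor gene (-1.85 ± 0.08), Hipk2, a kinase gene (-1.48 ± 0.26), and Pfkfb3, a glycolytic regulator gene (-1.47 ± 0.11). These 6 genes had 14 distal peaks. H3K4me3 passed the threshold at 1 of them, a Bcl6 peak 96386 bp upstream at chr16:24077211-24092957 (-1.21 ± 0.19, adjusted p = 0.0071), where H3K27ac changed by -0.50 ± 0.12 (adjusted p = 0.092). At the other peaks H3K4me3 changed by -0.41 to 0.13, and H3K27ac changed by -0.54 to 0.55 over the 14, none past the threshold. The Bcl6 peak at 5879 bp (chr16:23967075-23998563) and the Hipk2 peak at 5079 bp (chr6:38814743-38827477) reach over the TSS their distance is measured from. This Bcl6 peak carried 2785 and 2574 H3K4me3 tags per 10M in WT livers and 2871 and 2829 in LKO livers. Bcl6 RNA went from 1328 to 1432 in WT to 327 to 420 normalised counts in LKO libraries. All 12 RNA calls held with LKO replicate 2 alone.

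**Figure D5:**
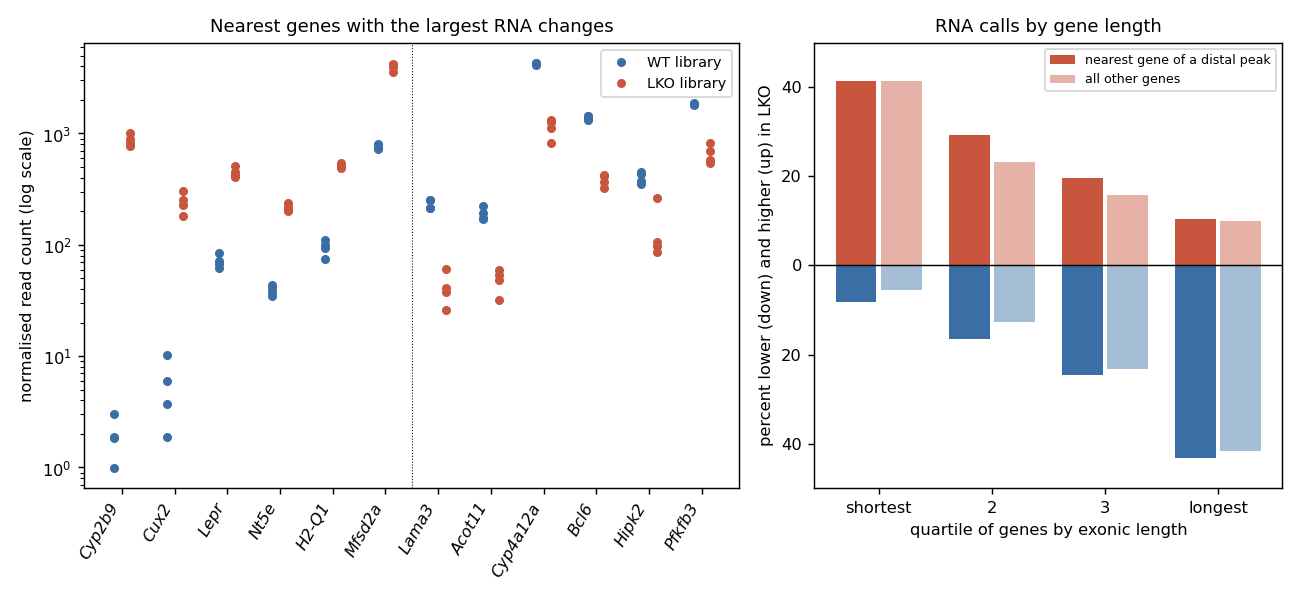
Left, RNA of the 12 named closest genes as normalised counts (log axis) in each of 4 WT and 4 LKO libraries. Right, percent of genes higher and lower in LKO livers by quartile of gene length, for genes closest to a distal H3K4me3 peak and for other genes, with falls rising from 8.30% in the shortest to 43.3% in the longest quartile of the closest genes.

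PPARα target genes had 19 distal H3K4me3 peaks, and 2 of these gained H3K4me3, beside 0.970% of all distal peaks. In edgeR, 9 of the 19 were higher and none lower in H3K4me3 at an unadjusted p below 0.05. The share of all distal peaks at this unadjusted level is not given here, and 0.970% counts adjusted calls. The peak in Plin2, a lipid droplet coat protein gene, rose from 800 and 788 H3K4me3 tags per 10M in WT to 1097 and 1004 in LKO livers (log2 0.40 ± 0.07, adjusted p = 0.0091). This peak is 23462 bp wide and reaches over the TSS its distance is measured from. The Plin2 call was lost without LKO replicate 1, without WT replicate 2 and in the test over all rows. For H3K27ac none of 18 passed in edgeR, and 1 was called by DESeq2. At an unadjusted p below 0.05 in edgeR, 5 were higher and none lower, beside 897 and 312 of 7002 distal peaks tested. The Plin2 peak had an H3K27ac change of 0.26 ± 0.08. At Acsl1, Cpt1a, Creb3l3 and Hadhb, genes of fatty acid activation, import, regulation and oxidation, H3K4me3 changed by 0.29, 0.18, 0.26 and -0.01, none past the threshold, and the Hadhb value turned to 0.02 without LKO replicate 1 or WT replicate 2. The Acsl1, Cpt1a and Hadhb peaks, 25125 to 67812 bp wide, also reach over the TSS their distance is measured from. The Creb3l3 peak holds 2 starts of Creb3l3. Plin2 RNA rose by 0.41 ± 0.06. Over the list, the median change at the 19 peaks was 0.22 for H3K4me3 and 0.07 for H3K27ac, beside 0.02 and 0.06 over all distal peaks. Of all genes tested for RNA, 23.4% were higher and 21.4% lower. Of 41 targets tested for RNA, 23 were higher and 7 lower (24 and 9 with LKO replicate 2 alone), and of the 14 with a distal peak, 8 and 2 (9 and 2).

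Hepatocyte transcription factors, the regulators that keep liver identity, had many distal peaks. Of 24 factors, 19 were closest to 51 distal H3K4me3 peaks, and 10 of these 19 were lower and 3 higher in RNA (5 and 4 with LKO replicate 2 alone), beside 21.4% lower and 23.4% higher over all genes. No peak passed for H3K4me3 in edgeR or DESeq2, with 1 higher and 3 lower at an unadjusted p below 0.05, and none of 48 passed for H3K27ac by either tool, with 11 higher at that level. Over all distal peaks, 0.970% were called higher and 0.124% lower in H3K4me3, and 1.54% and 0.300% of those tested in H3K27ac. At an unadjusted p below 0.05 in edgeR, H3K27ac was higher at 897 and lower at 312 of the 7002 distal peaks tested. For H3K4me3 the unadjusted count over all distal peaks is not given here. In RNA, Prox1 (-0.95 ± 0.24) and Zbtb20 (-0.81 ± 0.11) fell, and Foxa2 (0.75 ± 0.09) and Cebpa (0.53 ± 0.07) rose. Genes for H3K4 methylation enzymes were lower in 6 of 17, and those for H3K27 acetylation in 5 of 10. With LKO replicate 2 alone, 2 of the 17 were lower and 1 higher, and 3 of the 10 were lower. Genes that liver expresses differently in males and females were closest to 10 distal peaks, of which 1 rose and 1 fell in H3K4me3 and 3 rose in H3K27ac, and in RNA 6 of 18 were higher and 11 lower (7 and 12 of 19 with LKO replicate 2 alone).

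Markers of other liver cells moved as well, beside 23.4% of all genes higher and 21.4% lower in RNA. All 6 stellate cell markers were higher, with a summed level of 53.9 to 58.0 RPKM, counts scaled by gene length and library size, in WT and 98.1 to 106 in LKO livers. Kupffer cell markers were higher in 6 of 7 (58.3 to 60.1 and 73.9 to 89.2), cholangiocyte markers in 3 of 5 (37.0 to 39.0 and 52.2 to 64.6) and endothelial markers in 3 of 6. Of the lymphocyte markers, 1 of 6 was expressed enough to be tested and was higher, and of 3 erythroid markers 2 were higher and Alas2, of haem synthesis, was lower (-1.10 ± 0.06). With LKO replicate 2 alone, 6 stellate, 4 Kupffer, 2 cholangiocyte and 3 endothelial markers were higher, and 1 erythroid marker was higher and 1 lower. Of the 10 hepatocyte markers 5 were higher and 2 lower (6 and 3 with LKO replicate 2 alone), with sums of 62040 to 63800 and 80420 to 97370. Of these cell types, 6 hepatocyte markers were closest to 17 distal H3K4me3 peaks, 2 of which rose, while the Kupffer cell marker Clec4f was closest to 1, the cholangiocyte marker Epcam to 4, the stellate cell marker Reln to 2 and 4 endothelial markers to 6, none of which passed for H3K4me3. Over all distal peaks, 0.970% gained H3K4me3. The part of cell composition in the results was not tested.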

How the data were processed

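Liver ChIP-seq and RNA-seq tables were used as deposited. Per the labels and the methods, the authors aligned reads to mm9 with Bowtie, called peaks with HOMER, merged the peaks of both marks and deposited raw tag counts per merged peak, without normalization, and peak lists whose scores were not used. RNA reads were aligned with HISAT2, and the deposited values are read counts per gene; the sources used here name more than 1 program for the counting. That table also holds the authors' own fold changes and p-values, which were not used. The peaks and gene lists were chosen with earlier results of these data known.

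Library size was the total tags in the table header, 15346011 to 19011288 for H3K4me3, 25018399 to 29443500 for H3K27ac, 11656614 and 11893002 for Pol II, 15497240 and 14791062 for GPS2, and 34261427 to 46106612 for the Ncor and Smrt lines. RNA libraries held 13194385 to 20086127 counted reads. Peaks of a mark in at least 2 of 4 libraries (Ncor and Smrt lines: rows with at least 1 tag) were tested with edgeR 4.0.16 (R 4.3.3) by glmQLFit and glmQLFTest without a scaling factor, and genes with TMM scaling after filterByExpr. P-values were adjusted by Benjamini-Hochberg over all features tested, and 0.05 was the threshold. They measure the spread between these libraries, which may be technical. The SE is the log2 change divided by the root of the F statistic. Normalised counts are TMM-scaled to the mean library. A Ncor or Smrt value is that of the row sharing most bases with the peak. Starts came from GENCODE M1 and sequence from NCBIM37. Shares have exact Clopper-Pearson intervals and tags of single libraries exact Poisson intervals, both at 95% and for counting error only.

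Named peaks were the 6 densest in H3K4me3, the 8 largest rises and 5 largest falls of H3K4me3 and 5 and 3 of H3K27ac among calls with both LKO libraries outside the WT range and at least 30 mean tags, up to 6 called for both marks, and up to 6 PPARα target peaks, 1 of which is not reported here. Named genes were the 6 largest RNA rises and falls at a mean of at least 100 normalised counts with no overlap of the groups. The pipeline was tested on simulated data. Alternatives were DESeq2 1.42.0, TMM scaling for peaks, other filters, a replicate block, each library left out, 10000 bp in place of 5000 bp, peaks in 4 of 4 lists and, added after the data were seen, peaks without a start and LKO replicate 2 alone for RNA. PPARα ChIP-seq was not used here.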

Additional observations from a re-analysis of the deposited data

Results flagged for a closer look

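In 4 of the 62 groups of 4 RNA libraries tested for the named genes, 1 library lay apart from the other 3 by more than Dixon's 95% critical value for the gap over the range, and chance flags about 1 group in 20. Cdk5rap1, whose peak gained H3K4me3, had 103 normalised counts in LKO replicate 1 and 74.6 to 75.8 in the other LKO libraries. The other 3 flags were in LKO replicate 2, the LKO library whose RNA did not follow gene length. It had 224 normalised counts of Cfap97, above the 179 to 184 of the others, 202 of Hadhb, below 254 to 258, and 265 of Hipk2, above 86.3 to 107. The fall of Hipk2 RNA was smaller with this library as the only LKO library, which was assumed to vary like the WT libraries (log2 -0.61, against -1.48).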

How the results depend on the processing

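Counts of distal peaks with H3K4me3 higher and lower were 86 and 11. They were 15 and 2 in a test over all rows with at least 1 tag, 17 lower with TMM scaling, 40 to 102 and 6 to 28 with 1 library left out, 52 higher beyond 10000 bp, 40 and 4 without a start within 1000 bp, and 50 higher without peaks over their own TSS. H3K27ac counts of 108 and 21 became 65 higher with TMM scaling, 50 lower in DESeq2, 34 lower over all rows, 55 and 12 for peaks in 4 of 4 lists, and 0 to 304 and 0 to 208 with 1 library left out. Its median change of 0.06 became 0.0088 with TMM scaling and 0.045 to 0.091 with 1 library left out. Ncor counts of 215 and 95 were 357 and 168 in DESeq2 and 56 to 257 and 15 to 127 with 1 library left out, and Smrt counts of 0 were 9 and 7 in DESeq2 and 0 to 1 higher with 1 left out. The cause of these differences was not tested.

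Replicate numbers are shared by the groups, but the labels do not say that they mark a pair, and the deviations of same-numbered libraries from their group means correlated at 0.26 (H3K4me3), 0.19 (H3K27ac, both over 2 pairs), -0.16 to -0.07 (Ncor), -0.17 to -0.01 (Smrt) and 0.03 to 0.14 (RNA). With the replicate block, the counts were 215 and 90 (H3K4me3), 367 and 100 (H3K27ac) and 124 and 49 (Ncor), 0 in the Smrt line, and 870 and 1016 genes for RNA.

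The share with an annotated start (18.6%) was 21.0% within 1000 bp, 14.4% beyond 10000 bp and 25.005% in 4 of 4 lists. The share with a CpG-rich window (20.4%) was 60.8% with a 200-base window, 16.3% and 30.2%. GPS2 (55.1%) was at 54.0% and 59.5% and Pol II (48.2%) at 45.6% and 60.5% in the latter 2 settings. H3K4me3 at the Hadhb peak (-0.0050) was 0.019 without WT replicate 2, 0.023 without LKO replicate 1, and between -0.033 and 0.023 when single libraries were left out. RNA counts of the closest genes stayed within 1.5 times in every setting run. With 2 libraries per genotype for each mark, small changes may have been missed.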
